A study of Mus musculus with 27 samples.

Results

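The comparison described here is the addition of siRNA against Ptbp2 to siRNA against Ptbp1 in E14, an established line of mouse embryonic stem cells. Cells that received siPTBP1+siPTBP2, called the double knockdown, were set against cells that received siPTBP1, in cytoplasmic (CY) and in nucleoplasmic (NP) polyadenylated RNA. Each of the 4 groups held 3 libraries, so that 12 of the 27 libraries of the series were used, paired by replicate number. A gene entered when its level reached at least 1 TPM in at least 3 of the 12 libraries, which left 15318 of 53379 genes. TPM is the share of a library's transcripts, corrected for transcript length and scaled to a common total. In every group the cells grew on gelatin with LIF, were transfected again 24 h after the first transfection, and were fractionated at 48 h. The siRNA concentration listed for the transfections was the same in every group. Neither group was without siRNA: cells of both received siRNA against Ptbp1, so the comparison is between 2 knockdowns, and control cells with siRNA against GFP (siGFP) are given for reference. Each culture was a transient transfection of a single cell line, and how the siRNA dose was divided between Ptbp1 and Ptbp2 is not stated in the sources used here.

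PTBP1, polypyrimidine tract binding protein, binds CU-rich RNA and mostly represses the inclusion of exons, many of them used in neurons and muscle. PTBP2 is its paralog, known from neurons, with overlapping RNA targets. PTBP1 represses an exon of Ptbp2 whose skipping leads to nonsense-mediated decay of the Ptbp2 mRNA, and the siPTBP1+siPTBP2 arm thus addresses the question of what changes when the paralog is lowered as well. PTBP3 (ROD1) is the remaining member of the family.

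The 12 libraries held between 11837 and 14999 genes with at least 1 TPM. All 8 embryonic stem cell markers examined (such as Pou5f1, Nanog and Sox2) averaged over 1 TPM in each group, with a summed level of 2218 to 3663 TPM. Of the markers of other types, 4 of 6 in CY and 5 of 6 in NP averaged over 1 TPM for neuron, and likewise for trophoblast. For fibroblast 2 of 6 did in CY and 5 of 6 in NP. For primitive endoderm 2 of 6 did in CY, and in NP 2 in the double knockdown and 4 in siPTBP1. The summed level of the neuron markers was 162 to 308 TPM. The summed levels of the fibroblast, primitive endoderm and trophoblast markers were 7.66 to 77.9, 5.06 to 17.0 and 10.7 to 29.9 TPM, with ranges that overlapped between double knockdown and siPTBP1 within each fraction. In these bulk samples, fewer cells of a type and less RNA per cell cannot be told apart. The double knockdown CY library of replicate 1 stood apart: it had 11837 genes with at least 1 TPM and a median log2 level of 2.46 over the genes tested, against 2.79 to 3.33 in the 5 other CY libraries, and 8.31% of its TPM lay in Mir6236, against 3.48% to 5.79%. Mitochondrially encoded RNA made up 15.0%, 22.5% and 19.1% of the TPM in double knockdown NP replicates 1 to 3, against 9.31%, 20.2% and 19.3% in siPTBP1 NP. The median log2 difference of all genes tested was -0.09 in CY, -0.02 in NP and -0.05 over both fractions pooled. Scaling by median ratios moved the CY median to 0.03, so the smaller CY differences below have to be read against that shift.

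Ptbp2 mRNA was lower in the double knockdown than in siPTBP1 cells in all 6 pairs of libraries, by more in CY than in NP. In CY it measured 1.45, 7.29 and 7.55 TPM in the double knockdown (5.43 ± 3.45, SD, n = 3) and 3.51, 18.9 and 19.2 TPM in siPTBP1 cells (13.9 ± 8.99, n = 3). The double knockdown thus held 41.3%, 38.5% and 39.3% of the siPTBP1 level in the 3 pairs. Replicate 1 was low in each treatment, so the groups overlap as a whole although every pair points the same way. The log2 difference was -1.13 (95% interval -1.50 to -0.76). It had the third smallest p of all genes tested and the smallest among protein-coding genes that were lower, at an unadjusted p of 4.06e-05, but limma's adjusted p over all genes was 0.207, so Ptbp2 was not called. The siGFP cells held 3.52, 15.0 and 15.4 TPM in CY, close to the siPTBP1 levels of the same replicate numbers.

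In NP the level of Ptbp2 was 3.56, 12.5 and 11.3 TPM in the double knockdown, against 5.66, 16.9 and 17.3 TPM in siPTBP1 cells and 7.81, 19.4 and 20.3 TPM in siGFP cells. The pairs held 62.9%, 73.9% and 65.2% of the siPTBP1 level, again with overlap between the groups through the low replicate 1. The log2 difference was -0.51 (95% interval -0.88 to -0.14; unadjusted p 0.0118, limma's adjusted p 1.0). Over both fractions pooled, with each culture entered once, it was -0.82 (95% interval -1.05 to -0.59; unadjusted p 0.000271, limma's adjusted p 0.32). By limma's unadjusted p Ptbp2 ranked 13 among the 15318 genes tested in the pooled comparison, and 82 in NP alone. Among the 14573 genes with a transcript of at least 200 nt, a limit chosen after seeing the data, none had a smaller pooled p. The CY effect minus the NP effect was -0.62 (95% interval -1.14 to -0.09; limma's adjusted p 0.963). A fit on all 27 libraries called Ptbp2 in CY (limma's adjusted p 0.0034) and pooled (0.0457), whereas a fit without the pairing by replicate gave unadjusted p of 0.144 in CY, 0.492 in NP and 0.247 pooled (limma's adjusted p 1.0 in each).

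**Figure D1:**
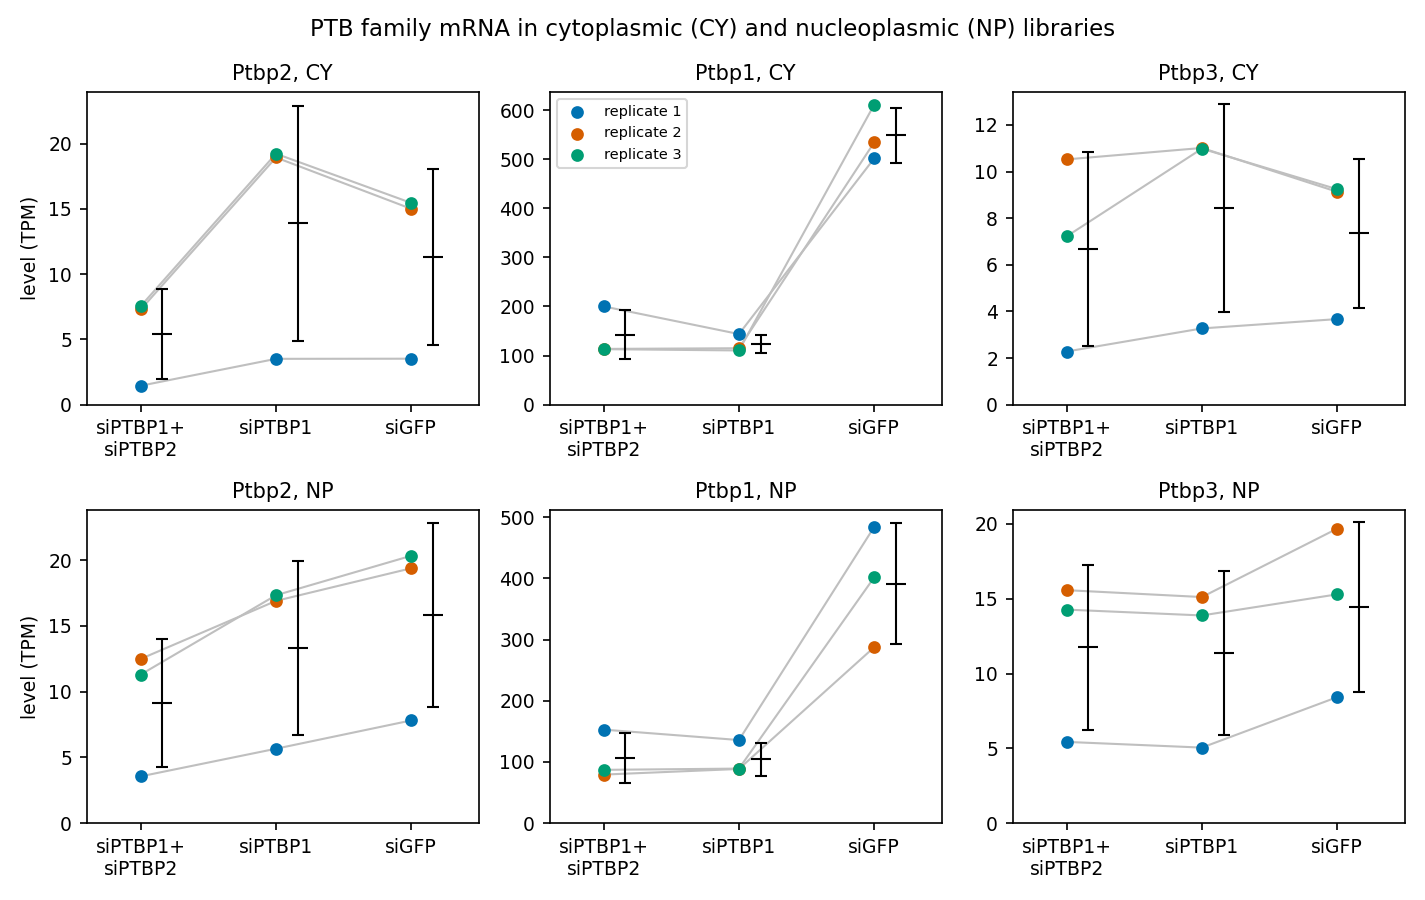
Level in TPM (y axis, linear) of Ptbp2, Ptbp1 and Ptbp3 in CY (top) and NP (bottom) libraries of siPTBP1+siPTBP2, siPTBP1 and siGFP cells (x axis); grey lines join libraries with the same replicate number, and black bars are the mean ± SD of 3 libraries. Ptbp2 is lower in the double knockdown than in siPTBP1 cells along every line, and Ptbp1 is far below its siGFP level in both knockdowns.

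Ptbp1 mRNA was at about the same level with and without the added siRNA. In CY it measured 200.2, 114 and 113 TPM in the double knockdown and 144, 115 and 110.4 TPM in siPTBP1 cells, against 502, 534 and 611 TPM in siGFP cells. Replicate 1 of the double knockdown was the highest of the 6 knockdown libraries, and the others overlapped. In NP the levels were 153, 79.4 and 87.1 TPM in the double knockdown and 136, 88.6 and 89.2 TPM in siPTBP1 cells, against 484, 287 and 401 TPM in siGFP cells. The log2 differences between the knockdowns were 0.16 (95% interval -0.14 to 0.47) in CY, -0.01 (-0.31 to 0.30) in NP and 0.08 (-0.21 to 0.36) pooled, with limma's adjusted p of 0.713, 1.0 and 0.859. The sign in NP turned with the scaling and with the library left out.

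Ptbp3 measured 2.28, 10.5 and 7.22 TPM in the double knockdown CY libraries and 3.27, 11.01 and 10.98 TPM in siPTBP1 CY. All 3 pairs were lower, with a log2 difference of -0.33 (95% interval -0.64 to -0.01; unadjusted p 0.0419, limma's adjusted p 0.701). In NP the levels were 5.43, 15.6 and 14.3 TPM in the double knockdown against 5.05, 15.1 and 13.9 TPM in siPTBP1 cells, a log2 difference of 0.06 (-0.26 to 0.37). As for Ptbp2, the replicate 1 libraries were the lowest of every group, so that without pairing the groups overlapped throughout.

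Across the transcriptome few genes passed the threshold of limma's adjusted p under 0.05. In CY 1 gene was called, 0.00653% of the genes tested, and it was higher in the double knockdown. In NP 11 genes were called (0.0718%), 4 higher (0.0261%) and 7 lower (0.0457%), and pooled over both fractions 0 were (0%). At an unadjusted p under 0.05 limma listed 628 genes in CY (4.1%), 169 of them higher (1.1%) and 459 lower (3%). It listed 272 genes in NP (1.78%), 135 higher (0.881%) and 137 lower (0.894%), and 545 pooled (3.56%), 173 higher (1.13%) and 372 lower (2.43%). A log2 difference of at least 0.5 in all 3 pairs was met by 18 genes on the higher side (0.118%) and 28 on the lower side (0.183%) in CY, by 47 (0.307%) and 24 (0.157%) in NP, and by 18 (0.118%) and 26 (0.17%) pooled. The CY excess of lower genes turned with the scaling, since 69.3% of the genes under 0.05 were higher after median-ratio scaling and 58.5% after quantile normalization, against 26.9% as deposited and 43.2% without the double knockdown CY library of replicate 1. In NP the share was 63.5% after TPM was rescaled without mitochondrial RNA and Mir6236, against 49.6% as deposited. The sampling error allowed differences of some size to go unseen: the 95% interval of a log2 difference reached 0.41 to either side for the median gene in each fraction and 0.28 pooled.

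Of the 11 genes called, 10 were listed at 0 in every library of 3 of the 4 groups, and the other one in 2. Those 10 met the entry level only through the 3 libraries of a single NP group and had to differ there, so their calls and p describe an all-or-none pattern and support no statement on the treatment. The same 10 had transcripts shorter than 200 nt, for which TPM depends strongly on the correction for fragment length. Among them were the precursors of 3 microRNAs and a mitochondrial tRNA gene. The values belong to reads assigned to the annotated precursor genes in poly(A)-selected libraries, not to mature microRNA. The mature sequences of the 3 named microRNA genes are shown to identify them, from RefSeq on GRCm38.p6, 5′ to 3′, with the seed (bases 2 to 8) in capitals; the 5 sequences have 5 different seeds.
mmu-miR-804: uGUGAGUUguuccucaccugga
mmu-miR-7647-5p: aACUACCAccuccuggccuuuu
mmu-miR-7647-3p: aAGUCCAGgaggugguaguac
mmu-miR-7051-5p: uCACCAGGaggaaguuggguca
mmu-miR-7051-3p: uGAGCCACugauuccugugugc

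Mir804, a 95 nt gene on chromosome 11 (50357785 to 50357879, minus strand), was listed at 5.13, 4.6 and 4.41 TPM in the double knockdown NP libraries and at 0 in the 3 siPTBP1 NP libraries. It was also at 0 in the 6 CY libraries of both knockdowns. Mir7647 (chromosome 5, 123522637 to 123522695, minus strand) was listed at 0 in all 3 double knockdown NP libraries and at 4.98, 7.41 and 4.36 TPM in siPTBP1 NP. Mir7051 (chromosome 7, 43457497 to 43457569, plus strand) likewise stood at 0 in the double knockdown and at 4.55, 4.42 and 4.36 TPM in siPTBP1 NP. In NP these genes were thus above 0 in all libraries of 1 treatment and at 0 in those of the other, and in CY they were at 0 in both.

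The mitochondrial tRNA gene for arginine, mt-Tr, was listed at 0 in the double knockdown NP libraries and at 4.48, 3.99 and 4.33 TPM in siPTBP1 NP. In siGFP NP libraries it was listed at 5.08, 0 and 0 TPM, so values at 0 and near 5 occurred within a single group. Limma's adjusted p of Mir804, Mir7051, mt-Tr and Mir7647 in NP ran from 2.03e-05 to 3.42e-05. The 4 calls were lost in the fit on all 27 libraries (0.96 to 1.0) and at a pseudocount of 0.1 (0.0639 to 0.0786). The remaining short genes called in NP carry predicted names. Gm4202, a processed pseudogene of 733 nt on chromosome 3 (92689426 to 92690158), was the single gene called in CY and the single long one in NP. It measured 8.26, 5.20 and 9.39 TPM in double knockdown CY libraries and was listed at 0 in siPTBP1 CY. In NP the order was turned round, with 0 in the double knockdown and 2.71, 6.68 and 2.47 TPM in siPTBP1 cells. In siGFP cells it ranged from 0 to 15.1 TPM in CY and from 0 to 15.6 TPM in NP, and reads of a processed pseudogene can be shared with its parent gene. The call of Gm4202 was lost when 1 of several libraries was left out, with limma's adjusted p up to 0.551 in CY and 0.794 in NP. With transcripts under 200 nt left out, limma called Gm4202 in CY and 0 genes in NP.

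**Figure D2:**
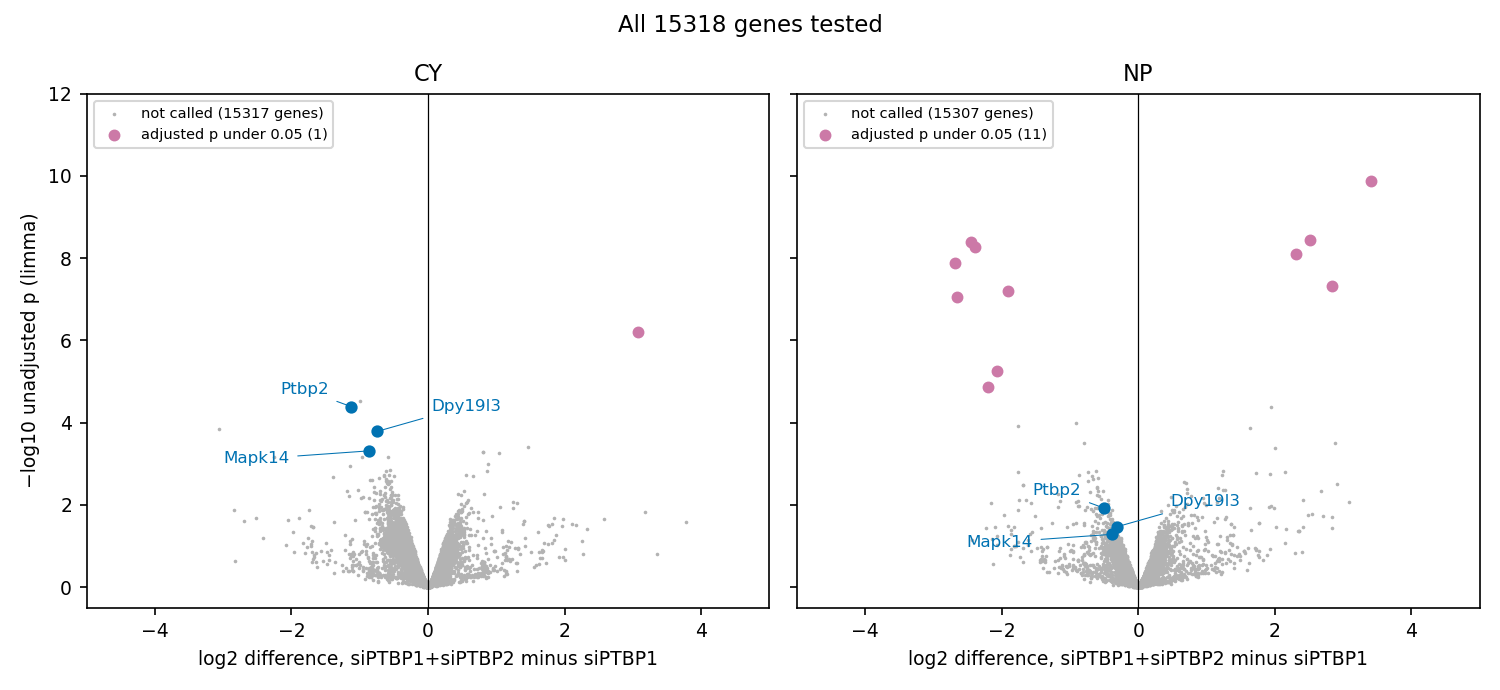
Log2 difference, siPTBP1+siPTBP2 minus siPTBP1 (x axis), against −log10 of limma's unadjusted p (y axis) for the 15318 genes tested in CY (left) and NP (right). The 1 gene called in CY and the 11 in NP (pink) each had groups listed at 0, and Ptbp2, Dpy19l3 and Mapk14 (blue) are marked; none of the 3 was called.

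Among genes with ordinary levels the rule for named genes picked those with the smallest p in each direction, none of which was called. Mapk14, the stress-activated kinase p38 alpha, measured 28.6, 39.4 and 41.5 TPM in the double knockdown CY libraries and 74.6, 59.2 and 66.5 TPM in siPTBP1 CY. The groups did not overlap, and the log2 difference was -0.86 (95% interval -1.25 to -0.48; unadjusted p 0.000485, limma's adjusted p 0.701). In NP it measured 41.8, 36.8 and 36.6 TPM in the double knockdown against 57.4, 45.8 and 48.3 TPM in siPTBP1 cells, a log2 difference of -0.38 (-0.77 to 0.00). The siGFP levels, 57.2, 56.1 and 60.0 TPM in CY and 58.3, 47.4 and 53.4 TPM in NP, were on the siPTBP1 side in both fractions.

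Dpy19l3, an enzyme that attaches mannose to tryptophan residues of secreted proteins, measured 2.34, 3.46 and 3.35 TPM in double knockdown CY and 4.90, 7.18 and 5.36 TPM in siPTBP1 CY. The log2 difference was -0.75 (95% interval -1.04 to -0.46; limma's adjusted p 0.501), without overlap. In NP, where its level was several times higher, it measured 17.38, 22.77 and 18.04 TPM in the double knockdown against 22.1, 28.2 and 23.0 TPM in siPTBP1 cells, lower in all 3 pairs with a log2 difference of -0.32. Here the siGFP levels of 2.45, 3.31 and 3.82 TPM in CY and 14.71, 14.42 and 20.99 TPM in NP were on the side of the double knockdown.

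Pus10, a pseudouridine synthase, was not called in CY, where it measured 4.23, 11.7 and 13.6 TPM in the double knockdown against 7.16, 18.6 and 19.8 TPM in siPTBP1 cells, a log2 difference of -0.59 (limma's adjusted p 0.701). In NP it measured 10.2, 23.5 and 28.9 TPM in the double knockdown against 8.06, 21.5 and 25.5 TPM in siPTBP1 cells, a log2 difference of 0.20. The CY effect minus the NP effect was -0.79 (95% interval -1.18 to -0.40; unadjusted p 0.00101, limma's adjusted p 0.862). Snora30, a small nucleolar RNA of 130 nt, was listed at 0 in the 3 double knockdown CY libraries and at 2.87, 5.94 and 3.09 TPM in siPTBP1 CY (limma's adjusted p 0.701), while in NP it measured 14.4, 17.2 and 8.43 TPM in the double knockdown and 2.61, 8.35 and 13.7 TPM in siPTBP1 cells.

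On the higher side in CY stood Hist1h2bj, a histone H2B gene of 463 nt, at 1.86, 2.39 and 1.98 TPM in the double knockdown and 0.540, 0.760 and 0.220 TPM in siPTBP1 cells. The log2 difference was 1.04 (95% interval 0.57 to 1.51; limma's adjusted p 0.701), and in NP it was -0.14. Of the CY libraries only those of the double knockdown reached the entry level of 1 TPM for Hist1h2bj, which favours a higher value there. Histone H2B genes have near-identical copies, so the assignment of reads among them is uncertain. Josd2, a deubiquitinating enzyme, measured 14.6, 8.67 and 10.1 TPM in the double knockdown and 8.02, 5.34 and 6.49 TPM in siPTBP1 CY, without overlap (log2 difference 0.66). Abhd1 (0.56), Pgc, the precursor of a stomach protease (0.53), and Pla2g10, a secreted phospholipase (0.44), were also higher in CY, in all 3 pairs as the rule required. In NP the log2 differences of these 4 genes lay between -0.22 for Josd2 and 0.16 for Pgc.

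In NP the smallest p among the named protein-coding genes that were lower belonged to Egfr, the epidermal growth factor receptor. It measured 4.48, 5.08 and 4.38 TPM in the double knockdown and 9.08, 7.46 and 6.74 TPM in siPTBP1 NP, against 3.36, 2.54 and 2.86 TPM in siGFP NP. The groups did not overlap, and the double knockdown lay between siPTBP1 and siGFP, with a log2 difference from siPTBP1 of -0.63 (95% interval -0.95 to -0.30; unadjusted p 0.00152, limma's adjusted p 1.0). In CY Egfr was under 1 TPM in all libraries of both knockdowns. The mitochondrial tRNA gene for asparagine, mt-Tn (71 nt), measured 13.8, 17.6 and 16.9 TPM in double knockdown NP and 31.7, 24.0 and 30.6 TPM in siPTBP1 NP (log2 difference -0.80, limma's adjusted p 0.28), and was listed at 0 in CY.

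The genes named on the higher side in NP were low or short. Lin7b, a scaffold protein of cell junctions and synapses, measured 3.25, 2.50 and 2.08 TPM in the double knockdown and 1.32, 1.05 and 1.16 TPM in siPTBP1 NP (log2 difference 0.72, limma's adjusted p 1.0). Ugt3a1, a UDP-glycosyltransferase, measured 1.01, 1.69 and 1.17 TPM against 0.290, 0.770 and 0.190 TPM in siPTBP1 NP (0.70). Of these NP libraries only those of the double knockdown reached the entry level of 1 TPM, which favours a higher value there. The precursor genes Mir7-1 and Mir290a, of which Mir290a belongs to a cluster known from embryonic stem cells, were listed at 4.32, 8.23 and 8.10 TPM and at 20.8, 18.9 and 4.41 TPM in the double knockdown, with 2 of 3 siPTBP1 NP libraries at 0 for each. In the pooled comparison the rule named on the higher side, beside Mir804, Mir196a-1, Hist1h2bn, Efcab7 and Snord13, and on the lower side, beside Ptbp2 and genes given above, Mir8091. Mir196a-1, Snord13 and Mir8091 have transcripts under 200 nt, and Hist1h2bn is another histone H2B gene. Efcab7, with the longest transcript of the 5 at 1713 nt, had a pooled log2 difference of 0.47 (95% interval 0.22 to 0.73; limma's adjusted p 0.811).

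Some genes had an unadjusted p under 0.05 in both fractions. Of the 459 lower in CY and the 137 lower in NP, 11 were lower in both, and of the 169 higher in CY and the 135 higher in NP, 6 were higher in both. Another 11 had opposite signs. The fractions share cultures but no libraries. The genes lower in both that encode proteins were examined after their values were seen, and besides Ptbp2 and Dpy19l3 included Nsg1, Hprt and Usp2. Nsg1, an endosomal protein of neurons, measured 1.27, 1.73 and 1.57 TPM in the double knockdown and 2.36, 2.66 and 2.34 TPM in siPTBP1 CY, and 2.51, 1.71 and 2.03 TPM in the double knockdown and 6.11, 3.09 and 3.32 TPM in siPTBP1 NP. Neither pair of groups overlapped, and the pooled log2 difference was -0.58 (95% interval -0.86 to -0.30; limma's adjusted p 0.811).

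Hprt, a purine salvage enzyme, measured 26.1, 113 and 106 TPM in the double knockdown and 47.9, 145 and 157 TPM in siPTBP1 CY, a log2 difference of -0.59. In NP it measured 25.1, 65.1 and 68.7 TPM in the double knockdown against 31.5, 82.6 and 93.0 TPM in siPTBP1 cells, a log2 difference of -0.36. It was lower in all 6 pairs, with the replicate 1 libraries far below the others in both treatments, as for Ptbp2. Usp2, a deubiquitinating enzyme, had log2 differences of -0.57 in CY and -0.42 in NP. Over all genes tested, 715 (4.67%) were lower and 151 (0.986%) higher in the double knockdown in all 6 pairs. With a log2 difference of at least 0.5 asked of every pair, 0 genes were lower and 1 was higher, AC163041.1, which carries a clone name and was listed at 0 in all siPTBP1 NP libraries.

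**Figure D3:**
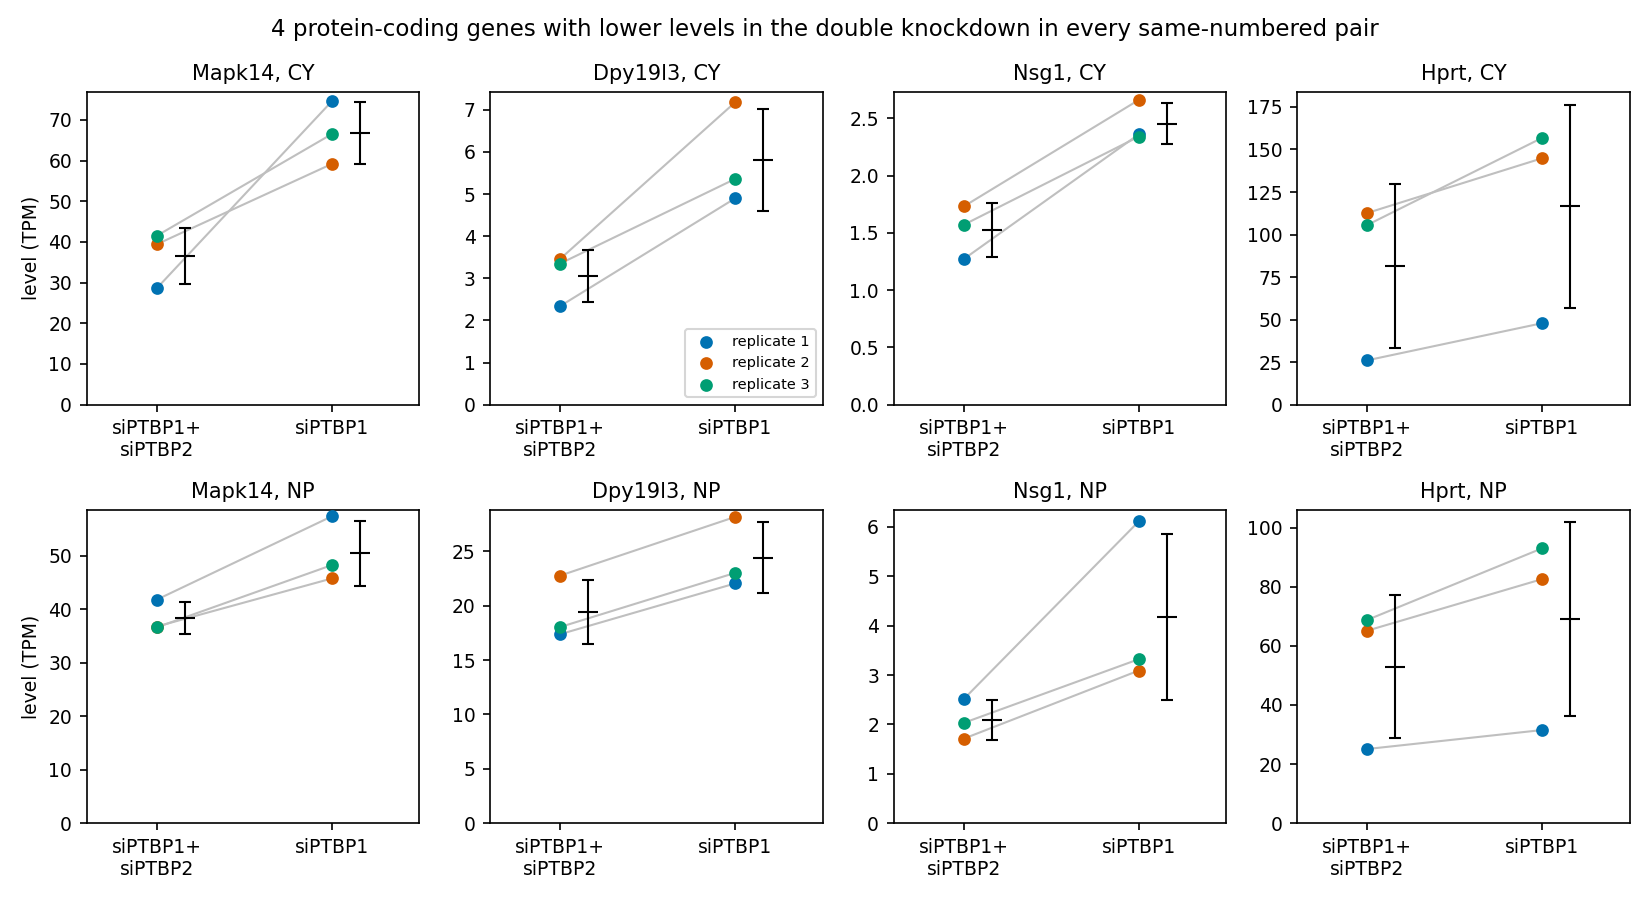
Level in TPM (y axis, linear from 0) of Mapk14, Dpy19l3, Nsg1 and Hprt in siPTBP1+siPTBP2 and siPTBP1 cells (x axis) in CY (top) and NP (bottom); grey lines join libraries with the same replicate number, and black bars are the mean ± SD of 3 libraries. Every line is lower at the double knockdown, which in CY was a condition of naming Mapk14 and Dpy19l3. Nsg1 and Hprt were chosen after their values were seen. For Hprt replicate 1 lies far below the other replicates.

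Genes whose exons PTBP1 and PTBP2 are known to control are described next at the level of whole-gene RNA. Of 14 such genes tested, 0 were called in CY, NP or pooled, beside 0.00653%, 0.0718% and 0% of all genes tested. At those shares, 0 calls among 14 genes are not a result about them. Of the 14, 0 had limma's unadjusted p under 0.05, against 4.1%, 1.78% and 3.56% of all genes. Their median log2 differences were 0.00, -0.03 and -0.01, beside -0.09, -0.02 and -0.05 for all genes tested. Dlg4, the postsynaptic scaffold PSD-95, measured 27.4, 29.5 and 24.7 TPM in the double knockdown and 23.3, 29.6 and 23.4 TPM in siPTBP1 CY, with overlap. Pkm, pyruvate kinase, measured 3327, 2286 and 1979 TPM in the double knockdown and 2675, 2333 and 1950 TPM in siPTBP1 CY. The pooled intervals of Dlg4 (-0.33 to 0.21) and Pkm (-0.18 to 0.23) bound the log2 differences that these data leave possible for these genes at the 95% level. Over all 14 genes the pooled log2 differences ran from -0.54 to 0.09, and the intervals reached from -1.19 to 0.44. In CY the lowest was that of Tpm1, given below (-0.73). The double knockdown and siPTBP1 libraries overlapped for 13 of the 14 genes in CY and for 14 in NP. They did not overlap for 2.21% and 1.85% of all genes tested. Gene levels do not show the inclusion of single exons or introns, which was not analysed here.

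The 17 genes of the siPTBP1-responder list, chosen from these data because siPTBP1 and siGFP differ there, are described next. Their choice used the siPTBP1 libraries, so their siGFP levels are a description. Double knockdown means ran from 69.9% (Tpm1) to 120% (Mov10) of the siPTBP1 mean in CY and from 79.7% (Tpm1) to 142% (Prrt2) in NP, whereas siGFP means ran from 1.98% to 557% in CY and from 6.64% to 320% in NP. The double knockdown and siPTBP1 libraries overlapped for 15 of 17 genes in CY and 16 of 17 in NP, where the 2 groups did not overlap for 2.21% and 1.85% of all genes tested. For siGFP and siPTBP1 the overlap was 0 and 1 of 17. Limma called 0 of the 17 in CY, NP or pooled, where it called 0.00653%, 0.0718% and 0% of all genes tested. At an unadjusted p under 0.05 there were 0, 0 and 1 (background 4.1%, 1.78% and 3.56%), and the median log2 differences were -0.09, -0.03 and -0.07.

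Among responders that were high in both knockdowns, Actc1, cardiac actin, measured 21.9, 50.1 and 71.6 TPM in the double knockdown and 30.1, 49.8 and 78.9 TPM in siPTBP1 CY, against 0.940, 0.360 and 1.84 TPM in siGFP CY. Acta2, smooth muscle actin, measured 30.2, 61.1 and 116 TPM in the double knockdown and 51.0, 69.5 and 124 TPM in siPTBP1 CY, against 4.93, 2.37 and 6.46 TPM in siGFP CY. The pairs thus followed each other replicate by replicate, far above the siGFP libraries; actin genes share much sequence, so the split of reads among them is uncertain. Vamp2, a vesicle fusion protein of synapses, measured 42.4, 58.4 and 64.3 TPM in the double knockdown, 37.4, 60.2 and 62.8 TPM in siPTBP1 and 13.2, 20.1 and 16.2 TPM in siGFP CY. Its pooled log2 difference between the knockdowns was 0.05 (95% interval -0.16 to 0.27; limma's adjusted p 0.872).

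Among responders that were low in both knockdowns, Flna, an actin crosslinker, measured 25.6, 20.7 and 19.3 TPM in the double knockdown and 19.1, 19.3 and 17.9 TPM in siPTBP1 CY, against 60.4, 71.7 and 53.3 TPM in siGFP CY. Mov10, an RNA helicase, measured 47.2, 26.8 and 20.1 TPM in the double knockdown and 30.6, 27.2 and 20.4 TPM in siPTBP1 CY, against 87.0, 108 and 91.7 TPM in siGFP CY. The formins Fmnl3 and Fhod1 and the scaffold Iqgap1 lay in the same order, with pooled log2 differences between the knockdowns of 0.11, 0.07 and 0.00.

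Tpm1, tropomyosin 1, was the responder with the widest log2 difference in CY. It measured 74.9, 240.2 and 328 TPM in the double knockdown CY libraries and 253, 277 and 391 TPM in siPTBP1 CY, against 55.3, 72.7 and 88.3 TPM in siGFP CY. The log2 difference was -0.73 (95% interval -1.48 to 0.01; unadjusted p 0.0532, limma's adjusted p 0.701), and replicate 1 of the double knockdown, the library that stood apart, was lowest. Without that library the log2 difference was -0.20. In NP the widest was that of Prrt2, a presynaptic membrane protein, which measured 3.72, 4.96 and 3.68 TPM in the double knockdown and 2.72, 2.94 and 3.03 TPM in siPTBP1 NP, without overlap (0.39, 95% interval -0.09 to 0.87). Myl3, a myosin light chain, was the responder with an unadjusted p under 0.05 in the pooled comparison. It measured 4.05, 4.34 and 3.88 TPM in the double knockdown and 4.59, 4.99 and 4.70 TPM in siPTBP1 CY, and 3.96, 4.05 and 3.18 TPM against 5.09, 4.84 and 4.05 TPM in NP, a pooled log2 difference of -0.22 (limma's adjusted p 0.811).

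**Figure D4:**
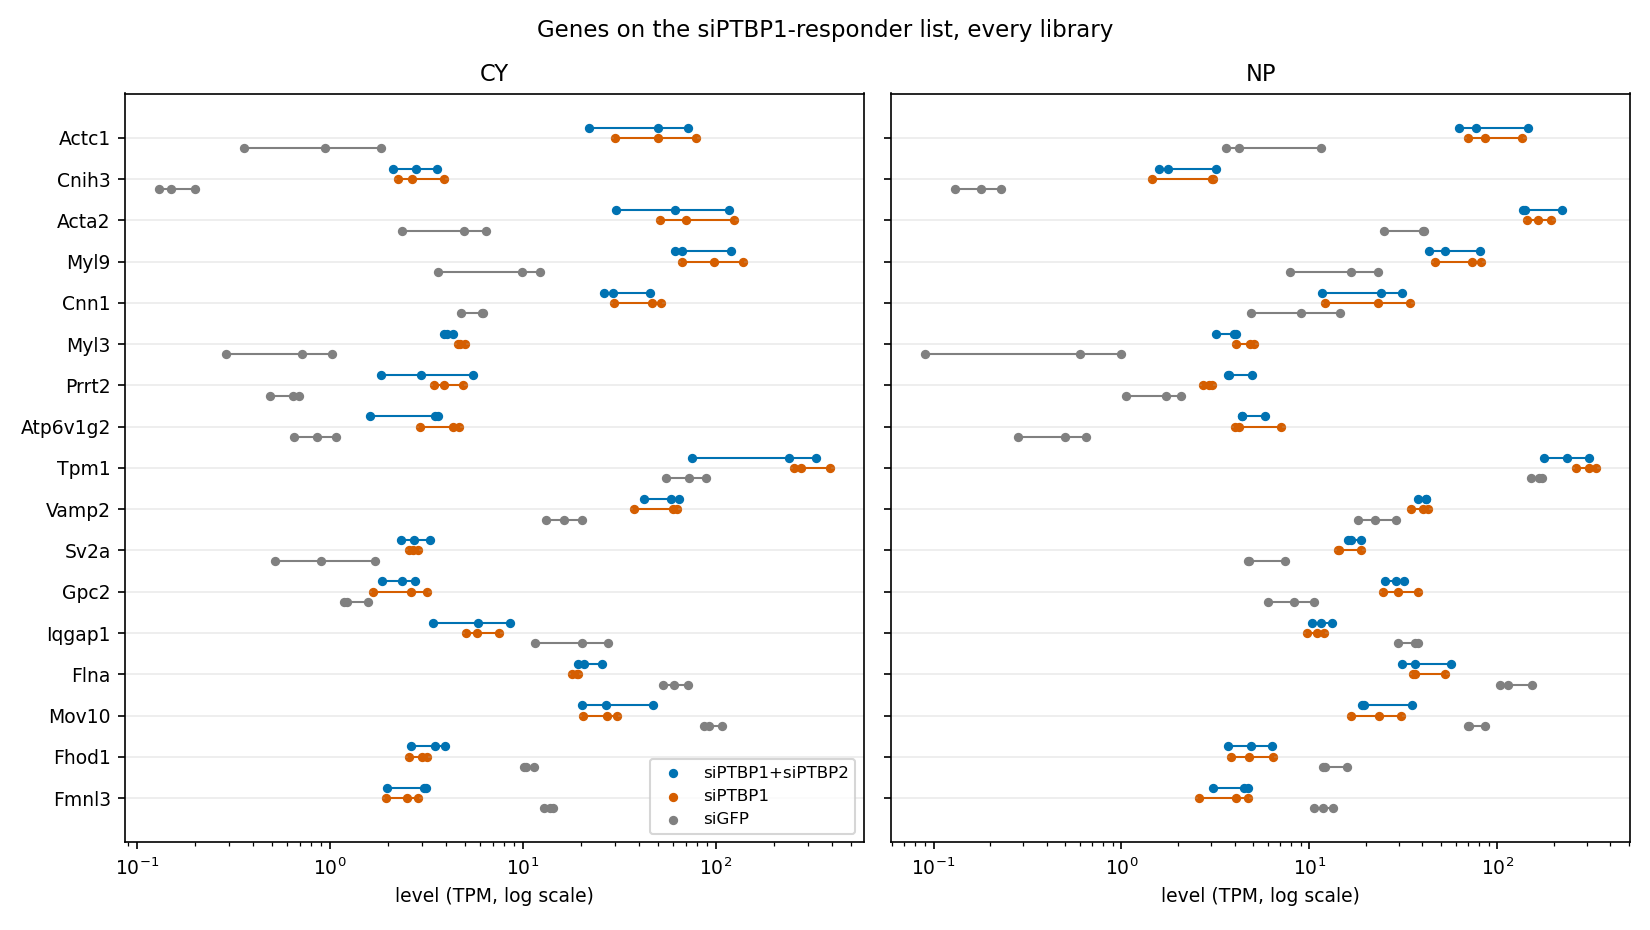
Level in TPM (x axis, log scale) of the 17 genes of the siPTBP1-responder list (y axis) in each CY (left) and NP (right) library of siPTBP1+siPTBP2 (blue), siPTBP1 (orange) and siGFP (grey) cells; a line spans the 3 libraries of a group. The ranges of blue and orange points overlap for 15 of the 17 genes in CY and 16 in NP. In CY grey points do not overlap orange points for any of the 17 genes, which were chosen for that.

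Other gene lists were described in the same way. Limma called 0 of their members in CY, NP or pooled, where it called 0.00653%, 0.0718% and 0% of all genes tested. At those shares, 0 calls in a list are not a result about the list. Among 18 splicing regulators of neurons and muscle tested, 12 were lower and 6 higher in CY (median -0.16), and 8 were lower and 10 higher in NP (0.03). The neuronal regulator Rbfox3 measured 1.56, 2.74 and 1.34 TPM in the double knockdown and 2.24, 3.20 and 1.94 TPM in siPTBP1 CY, with a pooled log2 difference of -0.19 (95% interval -0.45 to 0.07). For 25 synapse genes the medians were -0.02 in CY and 0.00 in NP. For 20 genes of the neuronal cytoskeleton and differentiation they were -0.11 and 0.00, with Nsg1 the lowest in NP. Of 7 neural progenitor genes tested, 3 were lower and 4 higher in CY (median 0.10). Of the 27 pluripotency genes, 17 were lower and 10 higher in CY (median -0.09), and 14 were lower and 13 higher in NP (-0.01). Klf2, a factor of naive pluripotency, measured 243, 206 and 184 TPM in the double knockdown and 185, 181 and 151 TPM in siPTBP1 CY, higher in each pair, with a log2 difference of 0.29 (limma's adjusted p 0.701).

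Several lists leaned to one side without a called member, and values of single libraries moved with them. Of 13 genes for SR proteins and Tra2, which promote exon inclusion, 12 were lower in CY (median -0.31) and 6 in NP (0.01), where 64.0% and 56.4% of all genes tested were lower. By pair, the CY median of the list was -0.80, 0.00 and -0.15 in replicates 1 to 3, so the lean was large in the pair that holds the library standing apart. Srsf1 measured 74.5, 389 and 434 TPM in the double knockdown and 145, 409 and 508 TPM in siPTBP1 CY. The 81 cytosolic ribosomal protein genes had 75 lower in NP (median -0.11; by pair -0.28, -0.06 and -0.01) and 55 lower in CY (median -0.18; by pair -0.54, 0.02 and -0.01). The CY medians of both lists moved with the scaling, to -0.13 for SR proteins and 0.01 for ribosomal proteins after median-ratio scaling. The NP median of the ribosomal proteins was -0.07 after TPM was rescaled without mitochondrial RNA and Mir6236, and -0.05 after quantile normalization.

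All 13 mitochondrially encoded mRNAs were higher in NP, with a median log2 difference of 0.31 and of 0.75, 0.20 and -0.07 in pairs 1 to 3. These mRNAs are themselves counted in the mitochondrial share of the same libraries, given above, so the share and the list are not separate observations. For mt-Co2, a subunit of cytochrome oxidase, the NP level was 12062, 14831 and 10169 TPM in the double knockdown and 6490, 10435 and 10691 TPM in siPTBP1 cells, with overlap. Among 25 nuclear genes of oxidative phosphorylation, 23 were lower in NP (median -0.10), and after TPM was rescaled without mitochondrial RNA and Mir6236 the median was -0.06. Of 17 targets of SRF and YAP, which follow the actin cytoskeleton, 16 were lower in NP (median -0.09, and -0.04 after the same rescaling) and 13 in CY (median -0.16, and 0.00 after median-ratio scaling). Acta1, skeletal muscle actin, measured 102, 16.6 and 45.6 TPM in the double knockdown NP libraries and 119.7, 20.23 and 49.97 TPM in siPTBP1 NP, lower in each pair, with a log2 difference of -0.21 (95% interval -0.88 to 0.46).

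Of 8 trophoblast genes tested, 6 were lower in NP, with a median log2 difference of -0.30 and of -0.37, -0.20 and -0.27 in pairs 1 to 3, and 5 were lower in CY (median -0.13, and 0.01 after median-ratio scaling). In NP the median stayed between -0.29 and -0.27 under the other scalings. Krt8, a keratin, measured 172, 24.99 and 28.16 TPM in the double knockdown NP libraries and 237.2, 27.83 and 35.02 TPM in siPTBP1 NP. Replicate 1 was far above the others in both treatments and each pair was lower, with a pooled log2 difference of -0.31 (95% interval -0.56 to -0.06; limma's adjusted p 0.811).

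**Figure D5:**
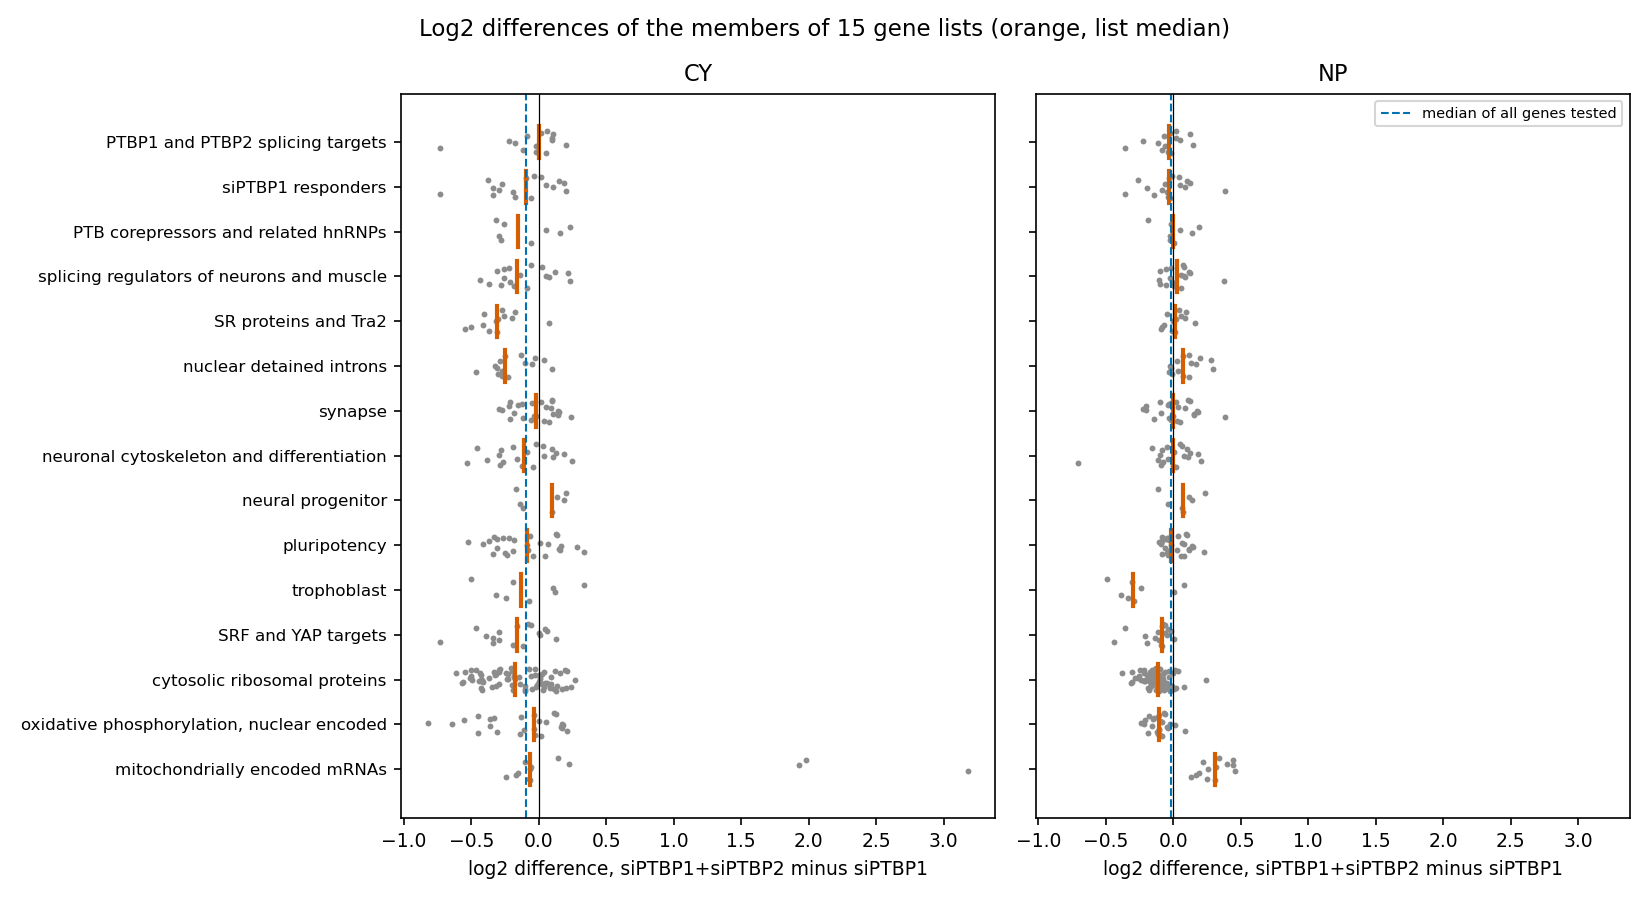
Log2 difference, siPTBP1+siPTBP2 minus siPTBP1 (x axis), of the tested members of 15 gene lists (y axis) in CY (left) and NP (right); each grey point is a gene, the orange bar is the list median and the dashed line the median of all genes tested (-0.09 in CY, -0.02 in NP). List medians lie between -0.31 and 0.10 in CY and between -0.30 and 0.31 in NP, where the trophoblast genes are the lowest and the mitochondrially encoded mRNAs the highest.

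The added siRNA's effect was also compared between the fractions. Limma's test of the CY effect minus the NP effect called 10 genes (0.0653% of those tested), 6 with the higher difference in CY (0.0392%) and 4 with the higher difference in NP (0.0261%). All 10 had groups listed at 0, and 9 had transcripts under 200 nt and both CY groups at 0, so that for these the difference restates the NP value. At an unadjusted p under 0.05 there were 355 genes (2.32%), 163 with the higher difference in CY (1.06%) and 192 with the higher difference in NP (1.25%).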

How the data were processed

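Levels were deposited by the authors as 1 table of TPM values for 27 libraries; the submitters' processing notes name STAR, kallisto and mm10, with no versions. Per the labels' protocols the libraries held poly(A)-selected RNA made with a stranded kit. TPM keeps no read totals, so library depth is unknown here and values carry no interval for counting error. A 0 may be a failed estimate, and such genes are described as listed at 0. Of 53379 gene IDs, 53274 were found in GENCODE M21, which gave positions and lengths (GRCm38).

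Differences were computed on log2(TPM + 1), which understates changes of low genes, with limma 3.58.1 in R 4.3.3 (eBayes with trend and robust, Benjamini-Hochberg adjustment over the 15318 genes tested, two-sided). The fit held 12 libraries in 4 groups with the replicate number as a block, which pairs same-numbered libraries of the double knockdown and siPTBP1. Same-numbered CY and NP libraries of a treatment come from 1 culture. The block does not model that culture, so this fit takes its CY and NP libraries as independent beyond the replicate number. Deviations of same-numbered libraries from their group means correlated at 0.388 to 0.730 in 18 pairs, against -0.594 to 0.323 in 36 pairs of other numbers. The pooled comparison used the mean of the CY and NP log2 values of each of 6 cultures. The effect in CY minus that in NP was tested in the 12-library fit. The series text calls the 3 replicates biological.

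Named genes, for each comparison, were the called genes with the largest log2 differences that average at least 1 TPM in either group and have a symbol that is not a predicted, clone or Rik name. Where fewer than 5 passed in a direction, the 5 were filled with genes of smallest unadjusted p that moved the same way in each pair. The PTB family, the splicing targets and the responders were added, with up to 3 members of each other list by pooled p. Gm4202, Hprt, Usp2 and AC163041.1, and the genes named for the difference of effects beyond the rule, were chosen after their values were seen. The members and lists were chosen with earlier results of these data known, and the responder list was chosen from these data. Alternatives were the fit without the block, all 27 libraries, each fraction alone, other pseudocounts, filters and scalings, limma without trend, cultures' libraries taken as independent, and each library or replicate left out. Exon and intron use was not analysed here. The values of 1 splicing target are not reported here.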

Additional observations from a re-analysis of the deposited data

Results flagged for a closer look

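For 10 genes the effect of the added siRNA differed between the fractions by limma's test of the difference itself (log2 difference in CY minus that in NP, adjusted p under 0.05). It was higher in CY for Gm4202 (5.28), Mir7647 (2.69), Gm22297 (2.65), Mir7051 (2.44), mt-Tr (2.40) and Gm22676 (1.91). It was lower in CY for Gm24806 (-3.41), Gm24194 (-2.84), Mir804 (-2.51) and Gm25948 (-2.30). All 10 had at least 1 group listed at 0 in every library, so these values depend on the pseudocount. For all but Gm4202, with transcripts under 200 nt, both CY groups were listed at 0, so the difference restates the NP value with its sign turned, for genes that entered through 1 NP group. The part of the short length and of the values at 0 in these differences was not tested.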

How the results depend on the processing

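Adding all 27 libraries to the fit gave 1 gene in NP, 7 pooled and 0 for the difference of effects, and called Ptbp2 in CY (-1.13) and pooled (-0.82). Its single CY gene was Ptbp2 and not Gm4202. Each fraction fitted alone gave 0 in CY and 6 in NP. A pseudocount of 0.1 gave 5 in CY, 2 in NP and 2 for the difference. A mean of at least 5 TPM gave 0 in CY, NP and the difference. Libraries of a culture taken as independent gave 11 pooled and called Ptbp2 (-0.82, limma's adjusted p 0.045). Transcripts of at least 200 nt, an alternative chosen after seeing the data, gave 0 in NP and 1 for the difference. Without the replicate block the counts were 1, 11, 0 and 10 in CY, NP, pooled and the difference, with the same genes called. Ptbp1 in NP turned to 0.02 after quantile normalization and 0.04 after rescaling without Mir6236 and mitochondrial genes. The cause was not tested.

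With each library or replicate left out, calls ranged from 0 to 4 in CY, 9 to 31 in NP, 1 to 22 for the difference and 0 to 162 pooled. CY gave 0 without siPTBP1 CY replicate 2, 4 without siPTBP1 CY replicate 3, 3 without siPTBP1+siPTBP2 CY replicate 1 and 2 without siPTBP1 NP replicate 1, siPTBP1 CY replicate 1, siPTBP1+siPTBP2 CY replicate 3 or replicate 2. NP gave 31 without replicate 2 and 28 without replicate 3. The difference gave 1, 22 and 3 without replicates 1, 2 and 3. Pooled calls numbered 162 without the replicate 3 culture of siPTBP1+siPTBP2, 159 without that of siPTBP1 and 156 without both. Ptbp2 ranged from -1.32 to -1.02 in CY, -0.61 to -0.39 in NP and -0.87 to -0.78 pooled, where it was called without either or both replicate 3 cultures. Ptbp1 ranged from 0.01 to 0.26 in CY, -0.10 to 0.08 in NP and -0.04 to 0.16 pooled. Under the alternatives that kept every library, 333 values of single named genes other than Ptbp1 and Ptbp2 kept direction and call. Another 17 lost the call, 1 gained it and 0 reversed. With a library or replicate left out, Gm4202 kept direction and call in 11 of 15 settings in CY and 7 of 15 in NP. With depth unknown, the limit on small differences is the spread between 3 replicates.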
